A study of Sus scrofa with 33 samples.

Results

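Genes of cell proliferation and mitosis were followed in the pituitary of pigs kept under thermoneutral conditions (TN) or exposed to heat (heat stress, HS). The set was a list of 40 gene symbols. A probe of the array was taken for a gene when that symbol was its name in the scanner files or stood in parentheses in its description, which gave 51 of the 60305 probes and 31 of the 40 genes. The rule found no probe for BUB1B, CCNA2, CCNE2, MAD2L1, MCM4, MCM5, MCM7, NDC80 and TYMS. For each gene the brightest probe by its mean in the authors' deposited log2 table was used, provided it stood above background. CENPE, FOXM1, KIF20A and TTK had a probe but none in that table, which left 27 genes, 19 of mitosis and 8 of G1/S control and DNA replication.

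The 33 pituitary samples came from castrated male growing pigs of 3 breeds, Large White (LW), Creole (CR) and their F1 cross, with 1 array per pig. There were 5 LW TN, 6 LW HS, 5 CR TN, 6 CR HS, 6 F1 TN and 5 F1 HS arrays. Room temperature was 24 °C in TN and 30 °C in HS by the labels, and the text of the series names another one for the exposure. Slaughter came before the heat for TN pigs and after some days of it for HS pigs, so slaughter day and age cannot be told apart from temperature. Pigs were arranged in blocks of littermates that the labels do not carry. The labels of LW HS 3 disagreed, with Large White in the title and Creole in the breed field, and it was taken as Large White.

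The arrays carried Agilent probes of 60 bases, and values are log2 of quantile-normalized intensity. Between 73.5% and 82.2% of the spots of an array stood well above background. The labels speak of pituitary gland, and by the study's methods the anterior lobe was taken. The hormone genes GH1, PRL, POMC and CGA were well above background on all 33 arrays. So were AVP and OXT, which encode the posterior lobe's peptides, and PAX7, a factor of intermediate lobe cells. HS against TN was 0.02 for AVP, -0.08 for OXT and 0.0027 for PAX7 on the log2 scale, with adjusted p-values of 0.923, 0.724 and 0.992. The TN arrays LW TN 2 and CR TN 1 stood apart on markers of other cells. The mean of the vessel markers, each centred over all arrays, was 1.14 and 0.67 on them and at most 0.3 on the other TN arrays, and that of the hormone cell markers was -0.34 and -0.27, with the other TN arrays at -0.08 or above. Leading counts are therefore also given without both, a choice made after the data had been seen.

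A dividing cell copies its DNA in S phase and separates the copies in mitosis. Entry into S phase follows E2F transcription factors and cyclin E, and the MCM helicase, its loader CDC6, the sliding clamp PCNA and the nucleotide-making enzyme RRM2 serve the copying itself. Entry into mitosis is driven by the kinase CDK1 with its B cyclins. Aurora and polo kinases then build the spindle, and the anaphase promoting complex, activated by CDC20, marks securin (PTTG1) and the cyclins for destruction so that the chromosomes separate. In bulk tissue, fewer dividing cells and less of a transcript per cell cannot be told apart.

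The probe sequences are shown for genes on which the results below turn, or whose probes allowed a check. CDC20 was on the array with 2 probes of the same 60 bases, in capitals here, so the difference between both shows the spread of the measurement itself. Of the 3 AURKA probes, 2 overlap in 27 bases, given in capitals, and those 2 are shown. TOP2A, CDK1 and CENPF represent the lower mitotic genes, PCNA and MKI67 the genes that were not lower. The MKI67 sequence is that of 1 of its 3 probes, which share no stretch with each other. It is the dimmest of them and not the probe used for the values of MKI67.
CDC20: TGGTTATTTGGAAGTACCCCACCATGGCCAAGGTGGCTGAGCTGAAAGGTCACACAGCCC
AURKA, probe 1: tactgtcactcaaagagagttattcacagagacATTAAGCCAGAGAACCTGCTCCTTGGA
AURKA, probe 2: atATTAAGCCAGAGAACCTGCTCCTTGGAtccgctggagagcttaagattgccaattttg
TOP2A: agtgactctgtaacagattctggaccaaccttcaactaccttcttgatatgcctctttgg
CDK1: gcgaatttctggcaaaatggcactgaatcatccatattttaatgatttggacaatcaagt
CENPF: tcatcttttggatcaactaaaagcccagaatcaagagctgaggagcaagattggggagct
MKI67: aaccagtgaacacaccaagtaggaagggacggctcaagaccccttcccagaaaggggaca
PCNA: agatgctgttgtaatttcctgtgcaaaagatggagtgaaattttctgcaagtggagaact

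The first comparison asked whether these genes differed between HS and TN pigs across the 3 breeds. Of the 27 genes, 15 were lower in HS pigs at an unadjusted p under 0.05 and 0 were higher, against 3.93% of all 47083 probes tested that were lower at that threshold and 4.74% that were higher. That is 55.6% of the genes. The median log2 fold change of the 27 genes was -0.19, and the median over all probes was 0.0078. A difference below 0 was found for 21 of the 27 genes and for 46.1% of all probes. None of the 27 genes passed the adjusted threshold of 0.05 in limma with Benjamini-Hochberg adjustment over all probes, and the smallest adjusted p was 0.066. Over all probes, 9 passed it (0.0191%). With slide as a block 2 (fixed) or 3 (random) of the 27 genes passed it, beside 91 and 58 of all 47083 probes, and 5 did without F1 TN 3, beside 38 of all probes. Without LW TN 2 and CR TN 1, 14 of the 27 genes were lower at the unadjusted threshold (3.27% of all probes), the median was again -0.19 and the smallest adjusted p was 0.114.

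**Figure D1:**
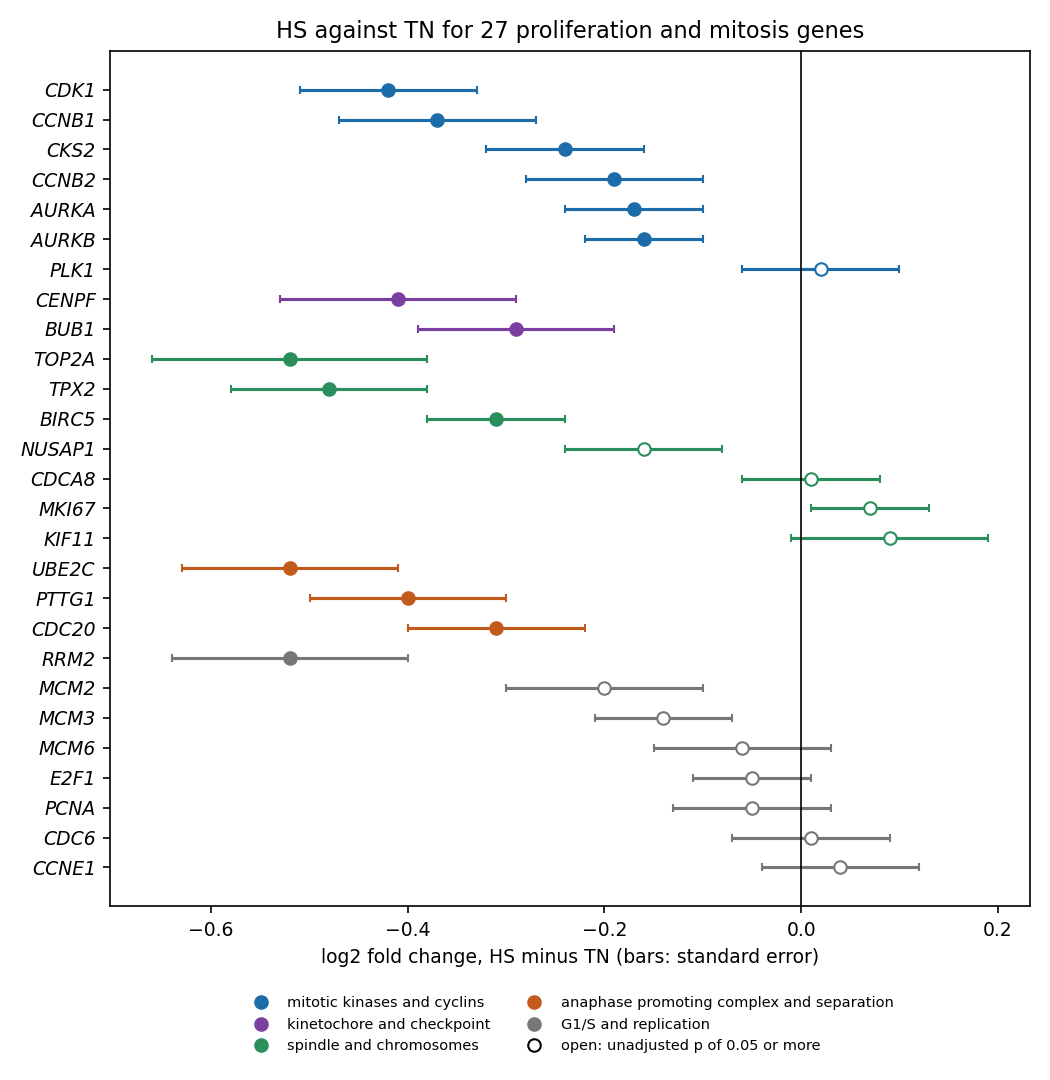
Log2 fold change of HS against TN (x axis, points, with standard errors as bars) for the 27 genes, coloured by role, with breed in the model. Filled points mark the 15 genes with an unadjusted p under 0.05, all of them left of 0, and 14 of these are among the 19 mitosis genes.

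The genes of mitosis made up most of this count. Of the 19, 14 were lower in HS pigs at the unadjusted threshold, with a median of -0.29 and a range from -0.52 to 0.09. Without LW TN 2 and CR TN 1 there were 12. Of the 8 genes of G1/S and replication, only RRM2 was lower by this fit, and their median was -0.05 with a range from -0.52 to 0.04. Whether these groups differ from each other was not tested.

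The kinases and cyclins that drive entry into mitosis were considered first. CDK1, the mitotic kinase, ranged from 8.73 to 9.66 in TN pigs (median 9.25) and from 8.26 to 9.43 in HS pigs (median 8.81). Most HS arrays thus lay in the lower part of the TN range, and 6 of 17 lay below its lowest array. The log2 fold change of CDK1 was -0.42 ± 0.09 (SE), an adjusted p of 0.0922, and 15 of 17 HS arrays were below the TN mean of their breed. CCNB1, the cyclin that activates CDK1, ran from 7.97 to 9.04 in TN pigs (median 8.55) and from 7.55 to 8.84 in HS pigs (median 8.12). It was lower on 16 of 17 HS arrays, with a log2 fold change of -0.37 ± 0.10 and an adjusted p of 0.161. CKS2, a small subunit of the kinase complex, had medians of 9.31 in TN and 9.14 in HS pigs, with ranges of 8.90 to 9.64 and 8.75 to 9.57, so that the groups overlapped widely. Its log2 fold change was -0.24 ± 0.08 (adjusted p of 0.295).

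The other genes of this group differed less. The second B cyclin, CCNB2, had a log2 fold change of -0.19 ± 0.09, and the Aurora kinases AURKA and AURKB gave -0.17 ± 0.07 and -0.16 ± 0.06. Their adjusted p-values lay between 0.438 and 0.564, although each passed the unadjusted threshold. AURKA and CCNB2 no longer passed it without LW TN 2 and CR TN 1. PLK1, the polo kinase, had medians of 6.13 in TN and 6.22 in HS pigs and a log2 fold change of 0.02 ± 0.08 (adjusted p of 0.975). Over all arrays, 6 of the 7 kinase and cyclin genes were lower at the unadjusted threshold, against 3.93% of all probes. FOXM1, a transcription factor of mitotic genes, was well above background on only 3 of 33 arrays and was not used.

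Kinetochores tie chromosomes to the spindle, and the checkpoint waits until all are attached. CENPF, a kinetochore protein of the G2 phase and mitosis, ranged from 7.72 to 9.07 in TN pigs (median 8.34) and from 7.31 to 8.63 in HS pigs (median 8.03). The ranges overlapped, with 4 HS arrays below the lowest TN array. Its log2 fold change was -0.41 ± 0.12, an adjusted p of 0.246. BUB1, a checkpoint kinase, had TN values of 6.42 to 7.44 (median 6.84) and HS values of 6.15 to 7.32 (median 6.60), a log2 fold change of -0.29 ± 0.10 with an adjusted p of 0.301. TTK, another checkpoint kinase, had 1 probe that was well above background on 24 arrays and absent from the deposited table, and its log2 fold change was 0.14 ± 0.14. CENPE, a kinetochore motor, was well above background on 0 of 33 arrays.

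Among the genes of the spindle and of chromosome structure, TPX2, BIRC5 and TOP2A were lower at the unadjusted threshold, against 3.93% of all probes. By this fit 4 others were not, though NUSAP1 was with slide as a block. TPX2, which activates Aurora A on the spindle, ranged from 8.62 to 9.60 in TN pigs (median 9.18) and from 8.02 to 9.14 in HS pigs (median 8.68). That left 8 TN arrays above the highest HS array and 5 HS arrays below the lowest TN array. The log2 fold change was -0.48 ± 0.10, with an adjusted p of 0.066, and 15 of 17 HS arrays were lower. BIRC5 (survivin), a subunit of the complex around Aurora B, ranged from 9.16 to 9.87 in TN pigs (median 9.54) and from 8.91 to 9.58 in HS pigs (median 9.25). For BIRC5 this placed 17 of 17 HS arrays under their breed's TN mean, which held for no other of the 27 genes. The log2 fold change of BIRC5 was -0.31 ± 0.07 with an adjusted p of 0.066. TOP2A, the topoisomerase that untangles replicated chromosomes, ranged from 8.89 to 10.34 in TN pigs (median 9.42) and from 8.28 to 9.74 in HS pigs (median 9.14). It combined a log2 fold change of -0.52 ± 0.14 with an adjusted p of 0.17, and its TN arrays were the most widely spread of the 27 genes (SD 0.45).

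MKI67, which encodes the Ki-67 protein used to stain dividing cells, was not lower. It ranged from 11.52 to 12.08 in TN pigs (median 11.84) and from 11.27 to 12.19 in HS pigs (median 11.94), so that the HS range covered the TN range. The log2 fold change was 0.07 ± 0.06 (adjusted p of 0.778), and 12 of 17 HS arrays were above the TN mean of their breed. NUSAP1, a microtubule binder, had -0.16 ± 0.08, the spindle motor KIF11 had 0.09 ± 0.10 and CDCA8, a partner of Aurora B, had 0.01 ± 0.07. NUSAP1 passed the unadjusted threshold with slide as a fixed or random block (-0.17 ± 0.08 in both, adjusted p of 0.388 and 0.462). The CDCA8 probe stood well above background on 32 of 33 arrays, and the probes used for the other 26 genes on all 33.

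All 3 genes around the anaphase promoting complex were lower at the unadjusted threshold, against 3.93% of all probes. UBE2C, the ubiquitin-conjugating enzyme of the complex, had the smallest p of the 27 genes. Its TN arrays ranged from 9.31 to 10.30 (median 9.85) and its HS arrays from 8.78 to 10.16 (median 9.33), with 8 of 17 HS arrays below the lowest TN array. The log2 fold change was -0.52 ± 0.11 (0.696 of the TN level), an adjusted p of 0.066. PTTG1 (securin), which holds back the separation of chromosomes, ranged from 8.30 to 9.29 in TN pigs (median 8.80) and from 7.90 to 9.20 in HS pigs (median 8.38). It differed by -0.40 ± 0.10 on the log2 scale, with an adjusted p of 0.159. CDC20, which activates the complex, had medians of 6.59 in TN and 6.38 in HS pigs, with ranges of 6.27 to 7.11 and 5.81 to 6.84. For this gene 15 of 17 HS arrays lay lower, and the log2 fold change was -0.31 ± 0.09 (adjusted p of 0.206). Over 46 settings of the processing and fit this fold change ran from -0.48 to -0.21.

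Of the genes of S phase, RRM2 stood with the mitotic genes. This subunit of ribonucleotide reductase ranged from 7.79 to 9.06 in TN pigs (median 8.46) and from 7.09 to 8.55 in HS pigs (median 7.91). The log2 fold change of RRM2 was -0.52 ± 0.12 (0.697 of the TN level), with an adjusted p of 0.121. PCNA had medians of 7.85 in TN and 7.82 in HS pigs, with ranges of 7.51 to 8.19 and 7.32 to 8.22, and differed by -0.05 ± 0.08 (adjusted p of 0.902). The helicase subunits MCM2, MCM3 and MCM6 gave -0.20 ± 0.10, -0.14 ± 0.07 and -0.06 ± 0.09, none past the unadjusted threshold. MCM2 passed it with slide as a fixed block (-0.23 ± 0.10, adjusted p of 0.369), and both MCM2 and MCM3 did with slide as a random block (-0.21 ± 0.10 and -0.14 ± 0.07, adjusted p of 0.453 and 0.485). They also passed when 1 of 5 arrays was left out, LW TN 2, LW HS 2, CR HS 2, F1 TN 3 or F1 HS 4. MCM2 alone of the pair passed without LW HS 1, CR TN 2, CR HS 1, F1 TN 2 or F1 HS 3, and MCM3 alone without LW TN 4, LW HS 3, LW HS 6, F1 TN 1 or F1 TN 5. RRM2 was lower with each of the 33 arrays left out in turn. E2F1 gave -0.05 ± 0.06, CCNE1 (cyclin E1) 0.04 ± 0.08 and CDC6 0.01 ± 0.08.

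**Figure D2:**
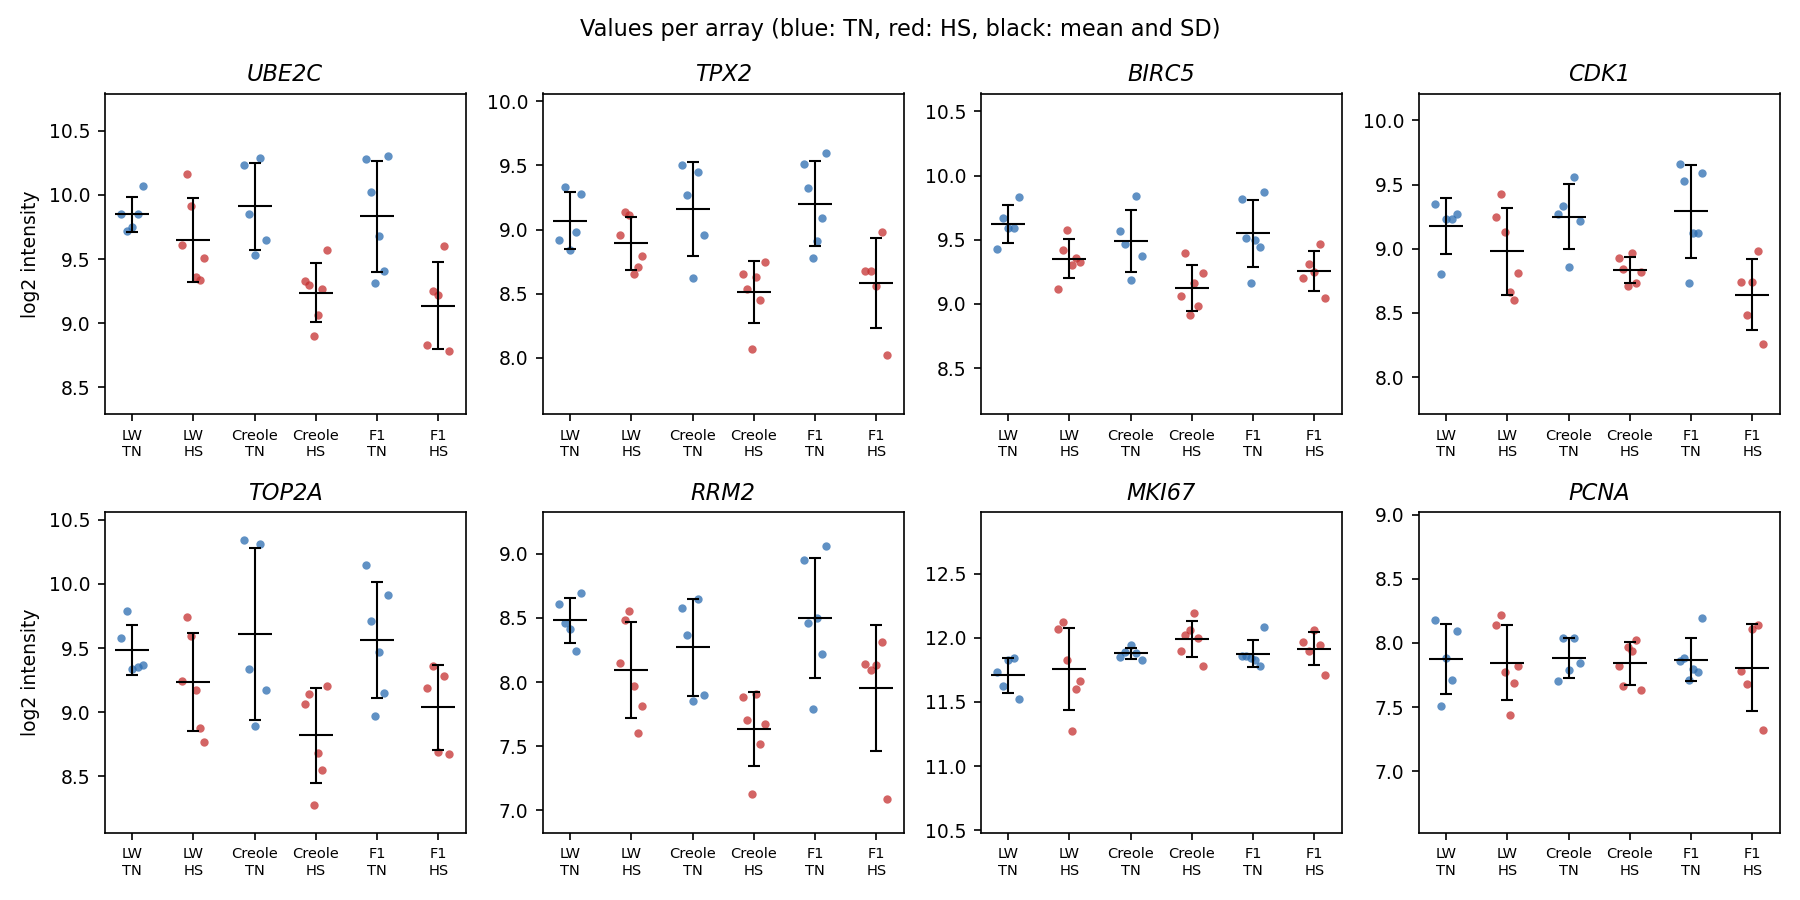
Log2 intensity (y axis) of 8 genes on each of the 33 arrays by breed and temperature, with blue points for TN, red points for HS and the mean and SD of each group in black. Every panel spans the same number of log2 units, and the HS means of UBE2C, TPX2 and BIRC5 sit below the TN means in each breed, while those of MKI67 sit above.

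Where a gene had several probes, they were compared as a check on a single probe's value. Of the 10 genes with more than 1 probe above background, all probes were lower in HS pigs for 8, and all at the unadjusted threshold for 5 (AURKB, BIRC5, CDC20, CDK1 and PTTG1). The exceptions were MKI67, with no probe lower, and CDC6, with 0.01 by the probe used and -0.16 by the other. The same share over all genes with several probes on the array was not taken. The 3 BIRC5 probes ran from -0.38 to -0.31 and the 4 CENPF probes from -0.41 to -0.15. The 3 MKI67 probes ran from 0.01 to 0.10 but differed widely in brightness. Their means over Large White arrays were 11.74 for the probe used and 8.73 and 6.07 for the others. The ranges and correlations of MKI67 rest on the probe used alone. Both CDC20 probes, which carry the same sequence, gave -0.31 and -0.22, and on single arrays their values differed by up to 0.70 log2 units (SD 0.23). The overlapping AURKA probes printed above were dimmer than the probe used and gave -0.01 and -0.06 against its -0.17.

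A wider naming rule, added after the data had been seen, gave 3 further probes for these genes. It found a TOP2A probe under its older name TOPOII, which had a log2 fold change of -0.44 ± 0.12 with 15 of 17 HS arrays lower. It also found a probe for KIF20A, a kinesin of late mitosis (-0.03 ± 0.11), and a second MCM6 probe (0.04 ± 0.05). Neither of those passed the unadjusted threshold.

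The breeds were then examined side by side, since the pooled value weighs 3 breeds together. Large White pigs had 1 of 27 genes lower in HS at the unadjusted threshold (2.8% of all probes), Creole pigs had 14 (2.79%) and F1 pigs had 11 (2.48%). The median log2 fold change was -0.07 for Large White, -0.29 for Creole and -0.25 for F1 pigs. It lay below 0 for 19, 21 and 24 of the 27 genes, and for 48.3%, 48.9% and 47.1% of all probes. None passed the adjusted threshold within a breed (0% of all probes in each), where the smallest adjusted p-values were 0.71, 0.83 and 0.418. The test of the difference itself, the interaction of breed and temperature, called 0 of the 27 genes even unadjusted by the probe used, against 4.29% of all probes, and its smallest adjusted p was 0.925. Of the 3 dimmer CENPF probes, 2 passed the unadjusted interaction test (adjusted p of 0.925 for both). With slide as a fixed block 2 genes, CCNB2 and CDC20, passed the unadjusted interaction test (7.41%, against 4.42% of all probes in that fit).

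**Figure D3:**
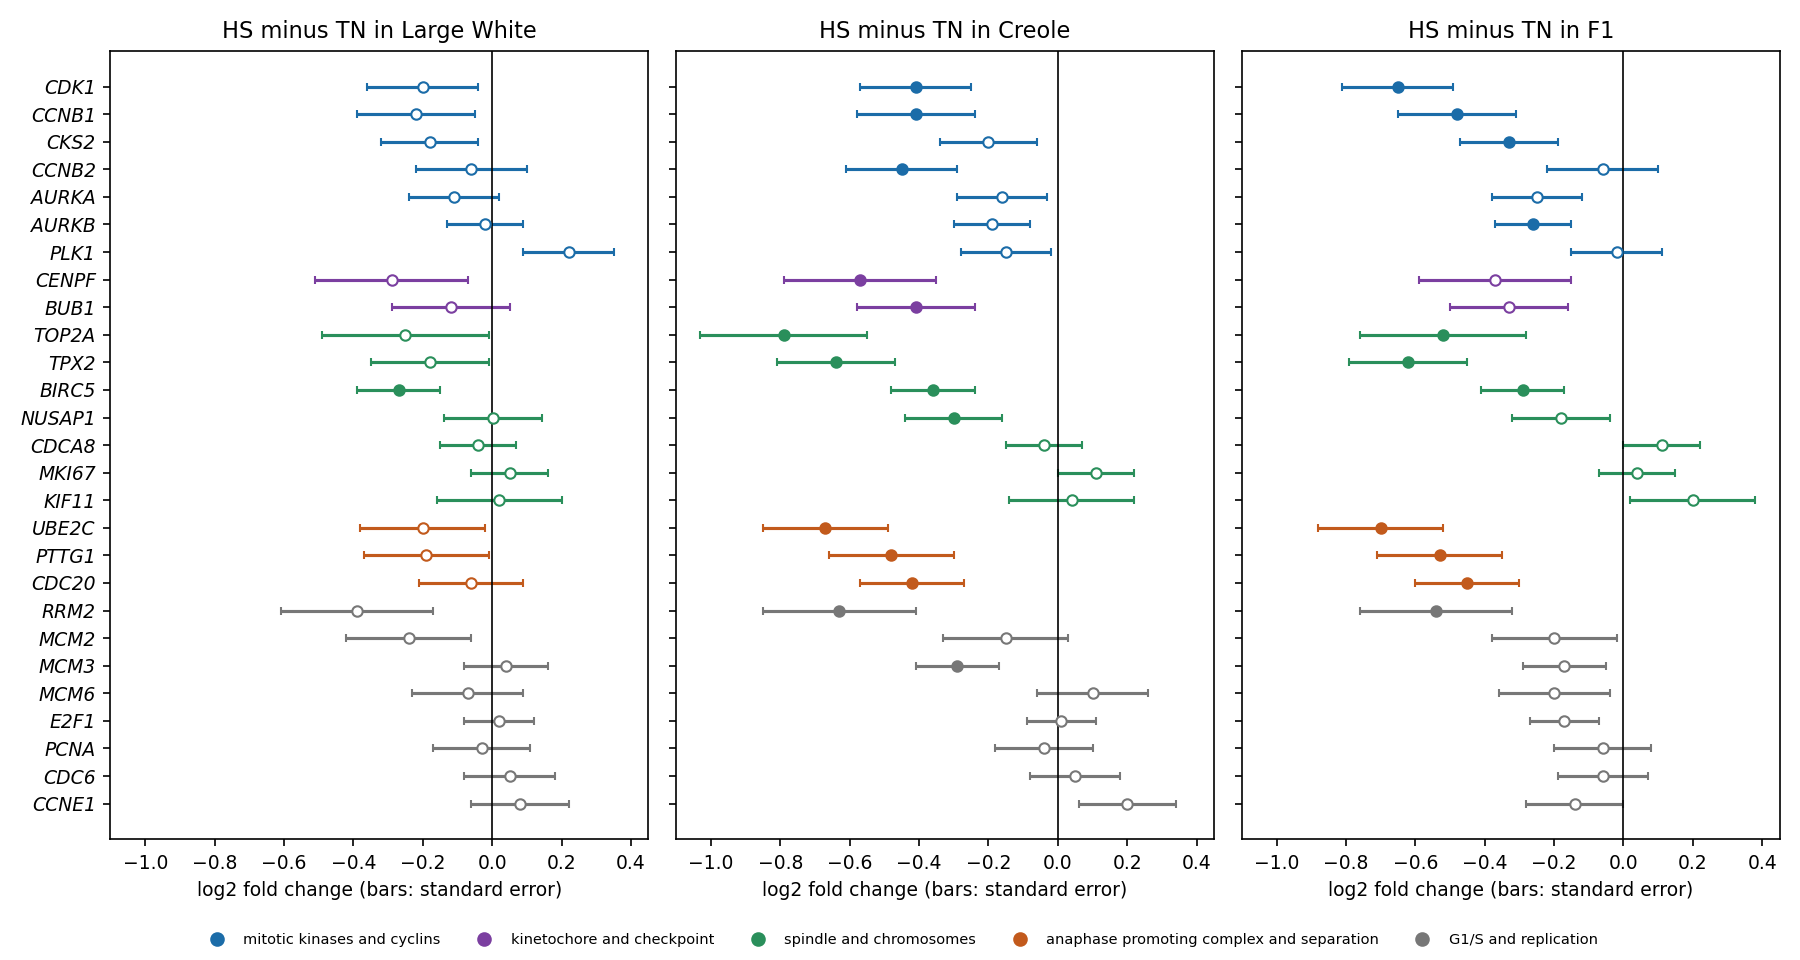
Log2 fold change of HS against TN (x axis, points, with standard errors as bars) of the 27 genes within each breed, in the same order and colours as in the plot over all breeds. Filled points mark an unadjusted p under 0.05, found for BIRC5 alone in Large White, for 14 genes in Creole and for 11 in F1 pigs.

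Group means show what lay behind these counts. UBE2C had 9.85 ± 0.14 (SD, n = 5) in LW TN and 9.65 ± 0.32 (n = 6) in LW HS pigs, a difference of -0.20 ± 0.18 (SE). In Creole pigs it was 9.91 ± 0.34 (n = 5) against 9.24 ± 0.23 (n = 6), a difference of -0.67 ± 0.18. The F1 values were 9.83 ± 0.43 (n = 6) and 9.14 ± 0.33 (n = 5), a difference of -0.70 ± 0.18. The TN means of UBE2C were thus close together, and the HS mean was highest in Large White.

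TPX2 too had its highest HS mean in Large White. Its TN means were 9.07 ± 0.22 in LW, 9.16 ± 0.37 in CR and 9.20 ± 0.33 in F1 pigs, and its HS means were 8.89 ± 0.21, 8.52 ± 0.24 and 8.58 ± 0.35. BIRC5 was the 1 gene lower at the unadjusted threshold in each breed, with differences of -0.27 ± 0.12 in LW, -0.36 ± 0.12 in CR and -0.29 ± 0.12 in F1 pigs. For TOP2A they were -0.25 ± 0.24, -0.79 ± 0.24 and -0.52 ± 0.24, and for CDK1 -0.20 ± 0.16, -0.41 ± 0.16 and -0.65 ± 0.16. CCNB2 was lower by this threshold in Creole pigs alone (-0.45 ± 0.16, against -0.06 ± 0.16 in each of the other breeds), with an interaction p of 0.14. MKI67 lay between 0.04 ± 0.11 and 0.11 ± 0.11 in the 3 breeds, and PCNA between -0.06 ± 0.14 and -0.03 ± 0.14.

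Single arrays carried some of the counts within a breed. The Creole count was 8 without CR TN 4, and the F1 count was 6 without F1 TN 6 and 7 without F1 HS 5. The Large White count was 0 without LW TN 2, LW TN 5 or LW HS 1, and 2 without LW HS 2 or LW HS 3.

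The mean over the mitotic genes, each centred on its mean over all arrays, shows the spread between pigs. Over the 19 genes it ranged from -0.19 to 0.45 in TN pigs (median 0.10) and from -0.44 to 0.29 in HS pigs (median -0.16). The groups overlapped, with 4 HS arrays below the lowest TN array and 4 TN arrays above the highest HS array. Creole was the breed in which all 6 HS arrays lay below 0 (-0.42 to -0.07), whereas LW HS ran from -0.19 to 0.29 and F1 HS from -0.44 to 0.08. For the 8 genes of G1/S and replication the ranges were -0.23 to 0.43 in TN and -0.32 to 0.25 in HS pigs, with medians of 0.04 and -0.07.

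**Figure D4:**
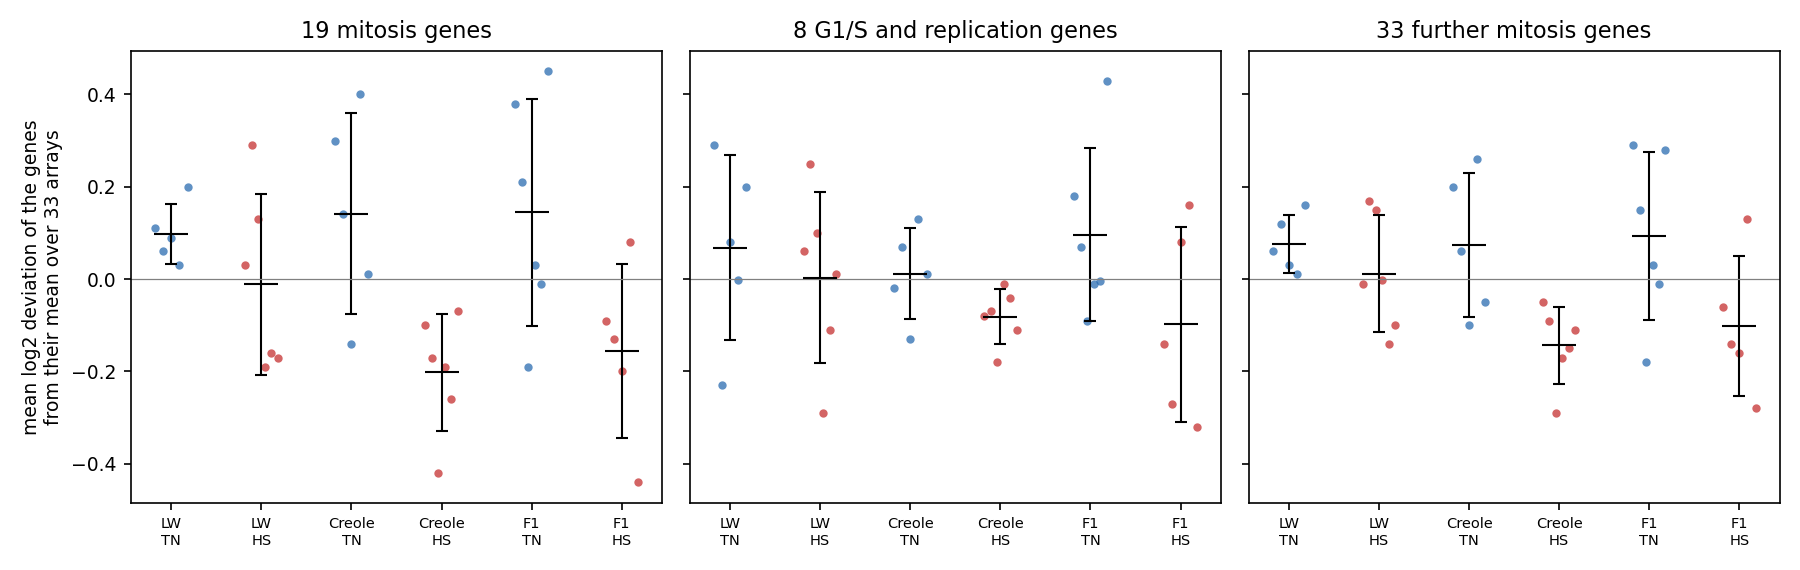
Mean log2 deviation of a gene group from its mean over the 33 arrays (y axis), for each array by breed and temperature, with blue points for TN, red points for HS and the mean and SD of each group in black. The 19 mitosis genes run from -0.44 to 0.45, and all 6 CR HS arrays lie below 0.

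The arrays had been run on 5 slides, each with TN and HS pigs, and the difference was therefore also taken within each slide. For the mean of the mitotic genes it was -0.20, -0.36, -0.06, -0.25 and -0.40 on slides 1 to 5, without correction for breed. The breeds were not balanced within a slide. Slide 1 held 1 TN array, of a Large White pig, and 2 HS arrays, of a Creole and an F1 pig. Breed and temperature thus cannot be told apart there. Slide 4 had no F1 HS array. Slide 3, with 4 TN and 4 HS arrays, showed a much smaller difference than the others. Its HS arrays included LW HS 2 and LW HS 3, and its TN arrays CR TN 2 and CR TN 3. For the G1/S and replication genes the same difference was -0.40, -0.03, 0.06, -0.15 and -0.28 on slides 1 to 5. UBE2C, TPX2, BIRC5, TOP2A, CDK1, CCNB1, CDC20, CENPF, CKS2 and RRM2 were lower in HS pigs on all 5 slides. These are the arrays of the pooled comparison, so this is a description and not a separate test. The share of all probes that were lower on every slide was not taken. On slide 3 the differences of UBE2C, TPX2, TOP2A and BIRC5 were -0.14, -0.19, -0.10 and -0.09, against -0.53, -0.37, -0.62 and -0.25 on slide 4. With slide as a fixed block, UBE2C (-0.53 ± 0.11, adjusted p of 0.0441) and TPX2 (-0.49 ± 0.11, adjusted p of 0.0451) passed the adjusted threshold and BIRC5 did not (adjusted p of 0.0501). With slide as a random block all 3 passed, at 0.0419, 0.0424 and 0.0432. Leaving out slide 1 from the fixed block left 1 gene past it, while the count over all probes was 141, against 91 with all slides.

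Which genes shared their deviations from pig to pig was then asked, after removing the mean of each of the 6 groups. The median Pearson correlation over the 171 pairs of mitotic genes was 0.46 across the 33 arrays, over the 28 pairs of G1/S and replication genes 0.43, and between both groups 0.33. All pairs share the same arrays, and with them the RNA quality and hybridization of each array. PTTG1 and BUB1 had the highest pairwise value, 0.93, and TOP2A with CENPF had 0.92. RRM2 had a median of 0.79 with the mitotic genes, above that of any mitotic gene with the others (up to 0.75, for UBE2C). KIF11 and CDCA8 had medians of -0.14 and 0.01, and the S phase genes CDC6 and E2F1 -0.01 and 0.03, each by the probe used.

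**Figure D5:**
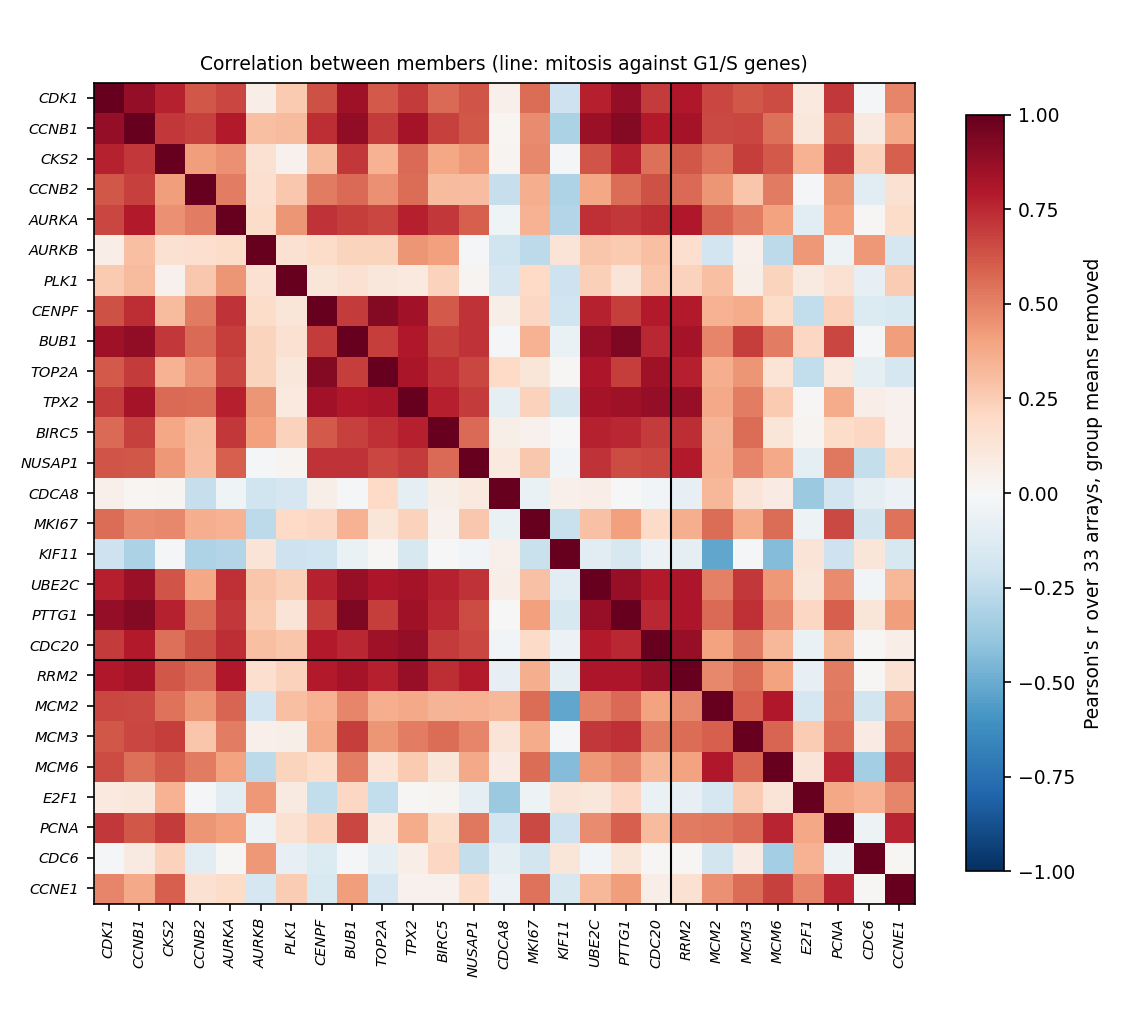
Pearson's r (colour, from -1 to 1) between each pair of the 27 genes over 33 arrays after removing group means, with lines between the 19 mitosis and the 8 G1/S and replication genes. A dark block joins most mitotic genes and RRM2, with medians up to 0.79, while KIF11, CDCA8, CDC6 and E2F1 have medians between -0.14 and 0.03 with the mitotic genes and single pairs further from 0, down to -0.52 for KIF11 with MCM2.

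For 7 relations a test was run over the 33 arrays (two-sided permutation test with 1e+05 resamples, adjusted over the 7), 4 of them chosen after the data had been seen. Those 4 were TOP2A with UBE2C, HBB, COL1A1 and VWF. TOP2A followed UBE2C, with Pearson's r of 0.805 and Spearman's rho of 0.815. Both raw p-values were 1e-05, the smallest the resamples can give (adjusted 7e-05), and r was 0.786 without the 2 most distant arrays. MKI67 did not follow TOP2A to a detectable extent (r of 0.125 with p = 0.49, rho of 0.127 with p = 0.48, adjusted p of 0.54 and 0.48). Without the 2 most distant arrays this r was 0.0249. MKI67 followed PCNA, with r of 0.658 (p = 6e-05, adjusted p of 0.00021) and rho of 0.575 (p = 0.00062, adjusted p of 0.0022), and r of 0.545 without the 2 most distant arrays. With slide means removed as well, r was 0.858 for TOP2A with UBE2C, 0.0247 for MKI67 with TOP2A and 0.66 for MKI67 with PCNA. As a description, MKI67 had r of 0.56 with CDK1, MCM2 and MCM6, 0.54 with CCNE1, 0.48 with CKS2 and 0.47 with CCNB1. Whether these correlations differ from each other was not tested.

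Markers of other cell types were read in the same comparison, as the sampled piece of gland can differ in its cells. Of 6 fibroblast markers, 4 were lower in HS pigs at the unadjusted threshold, COL1A1, COL1A2, COL3A1 and DCN, with a median over the 6 of -0.28, against 3.93% of all probes that were lower. The centred mean of that list ranged from -0.34 to 0.64 in TN and from -0.45 to 0.32 in HS pigs. Against the same share, 2 of 6 vessel markers were lower (VWF and PECAM1), with a median of -0.18 and ranges of -0.45 to 1.14 and -0.54 to 0.38. Of 8 erythroid markers, 2 were lower, again against 3.93%. HBB, a globin gene, had a log2 fold change of -1.15 ± 0.21 (adjusted p of 0.0307), and AHSP, which stabilises globin, had -0.37 ± 0.17 (adjusted p of 0.549). The median over the 8 was -0.03, and their fold changes ran from -1.15 to 0.20. The centred mean of the erythroid list ranged from -0.34 to 0.43 in TN and from -0.35 to 0.19 in HS pigs.

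These lists were also read without the arrays that stood apart. The HS minus TN difference of the centred mean of the vessel markers was -0.18 over all arrays, -0.11 without LW TN 2 and -0.06 without LW TN 2 and CR TN 1. For the fibroblast markers it was -0.24, -0.22 and -0.18, and for the erythroid markers -0.18, -0.18 and -0.17. The same difference of the 19 mitosis genes was -0.25, -0.25 and -0.24. Without both arrays 1 vessel marker (VWF), 3 fibroblast markers and 1 erythroid marker (HBB) were lower at the unadjusted threshold, against 3.27% of all probes, and the adjusted p of HBB was then 0.114.

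The remaining marker lists held fewer such genes. None of 8 leukocyte, 6 stem and folliculostellate cell or 3 intermediate and posterior lobe markers passed the unadjusted threshold, and of 9 hormone cell markers 1 was higher, against 4.74% of all probes. None of the markers used was below background throughout. Over the arrays TOP2A correlated with COL1A1 at r of 0.438 (p = 0.01, adjusted p of 0.018) and rho of 0.473 (p = 0.0058, adjusted p of 0.014). With VWF, r was 0.435 (p = 0.0091, adjusted p of 0.018) and rho 0.385 (p = 0.027, adjusted p of 0.047), and with HBB r was 0.269 (p = 0.13, adjusted p of 0.18) and rho 0.259 (p = 0.15, adjusted p of 0.21). Without the 2 most distant arrays the r values were 0.393, 0.306 and 0.171, and with slide means removed 0.459, 0.293 and 0.408. MKI67 with HBB had r of -0.111 (p = 0.54, adjusted p of 0.54) and rho of -0.169 (p = 0.34, adjusted p of 0.4), and r of -0.212 without the 2 most distant arrays and 0.0971 with slide means removed. The part of these cells in the difference of the mitotic genes was not tested.

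Further genes of the cell cycle were read from longer lists by the same probe rule. Of 57 further mitosis genes, 33 had a probe used, and 15 of these were lower in HS pigs at the unadjusted threshold and 0 higher, with a median of -0.13. Over all probes 3.93% were lower and 4.74% higher. KIF23, a kinesin of the dividing cell's midbody, was at -0.50 ± 0.10 (adjusted p of 0.0564) with 16 of 17 HS arrays lower. CDCA3, which takes part in mitotic entry, was at -0.49 ± 0.10 (adjusted p of 0.066), and SPAG5, a spindle protein, at -0.33 ± 0.08 (adjusted p of 0.146). None of the 33 passed the adjusted threshold.

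Of 42 further genes of DNA replication, 19 were used, and 1 was lower (CDC45, a helicase partner, -0.16 ± 0.06) and 1 higher (POLD3, a polymerase subunit, 0.18 ± 0.07), with a median of -0.01. Whether this list differs from that of the further mitosis genes was not tested. Of 16 used genes of the G1 cyclins, their kinases and the E2F and RB families, only CCND3 (cyclin D3) differed at the unadjusted threshold, and it was higher (0.13 ± 0.04, adjusted p of 0.335). Of 15 used genes of cell cycle arrest, TOB1 (0.17 ± 0.04, adjusted p of 0.17) and CDKN2B, which inhibits CDK4 and CDK6 (0.42 ± 0.15, adjusted p of 0.361), were higher, and GADD45B (-0.16 ± 0.07, adjusted p of 0.541) was lower. Over all probes, 8.68% passed this threshold in either direction.

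The list of G1 cyclins, their kinases and the E2F and RB families was also read within the breeds. In Large White pigs 5 of its 16 genes were higher in HS at the unadjusted threshold (31.2%, against 3.96% of all probes), cyclin D1 (CCND1, 0.52 ± 0.25), the transcription factors E2F3 (0.31 ± 0.11) and E2F6 (0.28 ± 0.11), their partner TFDP2 (0.24 ± 0.11) and RBL1 of the RB family (0.25 ± 0.09). In Creole pigs 2 were lower (12.5%, against 2.79% of all probes), CDK2 (-0.26 ± 0.10) and RBL2 (-0.22 ± 0.09). In F1 pigs 0 passed in either direction (5.71% of all probes). The interaction passed the unadjusted threshold for RBL1 and RBL2, which is 12.5% of the list against 4.29% of all probes. No gene of the list passed limma's adjusted threshold in these tests, where the smallest adjusted p-values were 0.654 (LW), 0.83 (CR), 0.861 (F1) and 0.925 (interaction). These genes were named after their values had been seen, and the other further lists are not given gene by gene within the breeds.

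The breed comparisons, with temperature in the model, asked whether the level of these genes differed between breeds. No gene passed the adjusted threshold by the probe used in any of the 3 comparisons, although 6.53% of all probes did between Large White and Creole, 1.43% between F1 and Large White and 6.66% between F1 and Creole. At the unadjusted threshold 4 of 27 genes differed between Large White and Creole (18.4% of all probes), 2 between F1 and Large White (13.7%) and 1 between F1 and Creole (21.5%). These shares of 14.8%, 7.41% and 3.7% were all below those of all probes. Without single arrays the counts ran from 1 to 5, from 1 to 3 and from 0 to 3. Between Large White and Creole 1 gene was left without LW HS 3, or with it taken as Creole, and 2 without LW HS 2, CR TN 3, CR HS 3 or CR HS 5. The adjusted count for this pair was 1 without LW HS 1 or LW HS 2. Between F1 and Large White 1 gene was left without LW TN 5, LW HS 4 or F1 HS 3. Between F1 and Creole the count was 0 without CR HS 3, 3 without F1 TN 3 or F1 HS 5, and 2 without LW TN 2, CR TN 4, F1 TN 2, F1 TN 4, F1 HS 3 or F1 HS 4.

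The genes that differed unadjusted were few. MKI67 was lower in Large White than in Creole by -0.20 ± 0.07 (means of 11.74 and 11.94, adjusted p of 0.0898), and F1 pigs were above Large White by 0.17 ± 0.07 (adjusted p of 0.29). Both dimmer MKI67 probes did not pass the unadjusted threshold, with -0.08 ± 0.11 and 0.01 ± 0.08 for Large White against Creole, and with -0.05 ± 0.11 and -0.05 ± 0.08, of the opposite sign, for F1 against Large White. RRM2, PLK1 and BIRC5 were higher in Large White than in Creole by 0.35 ± 0.15, 0.21 ± 0.10 and 0.19 ± 0.08, with adjusted p-values from 0.192 to 0.225. The BIRC5 difference rested on 1 of its 3 probes, as the others gave 0.02 ± 0.10 and -0.04 ± 0.10, and RRM2 and PLK1 had 1 probe each above background. AURKA was lower in F1 than in Large White pigs by -0.24 ± 0.09 (adjusted p of 0.175), and its dimmer probes gave -0.10 ± 0.06 and -0.02 ± 0.07, neither past the unadjusted threshold. CDC6 was higher in F1 than in Creole pigs by 0.21 ± 0.09 (adjusted p of 0.171), and its dimmer probe gave 0.16 ± 0.09, not past the threshold. The AURKB probes disagreed between F1 and Creole pigs. The probe used gave 0.14 ± 0.08 (adjusted p of 0.326), and both dimmer probes gave 0.54 ± 0.13 and 0.29 ± 0.09, with adjusted p-values of 0.00891 and 0.0362. Between Large White and Creole the probe used gave 0.11 ± 0.08 (adjusted p of 0.524), and the dimmer probes gave 0.38 ± 0.13 and 0.09 ± 0.08 (adjusted p of 0.0687 and 0.667).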

How the data were processed

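Total RNA of each pituitary was labelled with Cy3 and hybridised to 1-colour Agilent arrays. The authors deposited scanner files with the median pixel intensity of each spot from Agilent Feature Extraction 10.10.1.1, a processed intensity with background subtracted, and marks for outliers and spots well above background. The authors' deposited log2 table, for 45667 probes, was made by quantile normalization without background correction. Following the authors, median intensities were quantile-normalized here without background correction and log2 was taken. Leaving out spots marked as outliers beforehand was a step added here. On 45554 shared probes the median absolute difference from the deposited log2 values was 0.0038. A probe stayed (47083 did) if 1 or more of the 6 groups had it well above background on 75% or more of its arrays. The median intensity of an array was 131 to 165 over a background of 20 to 47.5, and the number of arrays limits the precision.

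Limma 3.58.1 in R 4.3.3 (with version 1.17.8 of the data.table package) fitted breed and temperature on 33 arrays (3.95 prior degrees of freedom), and 1 mean per group for values within a breed and the interaction. Tests were two-sided, adjusted over all kept probes, threshold 0.05, and the code was tested on simulated data. The study's random effects (parents, pen and day of slaughter) are not in the labels. Slide was read from the scan headers. Alternatives were the processed intensity, normexp with an offset of 50, the deposited table, other filters, slide blocks, array weights, other probes of a gene, LW HS 3 as Creole and each array left out. Plots used Python 3.11.15 with matplotlib 3.10.9, pandas 2.3.3 and numpy 2.4.6.

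Genes given with values were MKI67, TOP2A, PCNA, CDK1 and CCNB1 in any case, up to 12 with the smallest unadjusted p for HS against TN under 0.05, up to 10 past the adjusted threshold in a breed comparison, and up to 5 with an interaction p under 0.05. Of each other list these were genes past the adjusted threshold, or else up to 3 with the smallest unadjusted p. Other genes were named after their values were seen. The genes and lists were chosen with earlier results of these data known.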

Additional observations from a re-analysis of the deposited data

Results flagged for a closer look

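Of 90 groups of 5 or 6 arrays of the genes given with values, 6 held 1 array that stood apart from the rest of its group by Dixon's test, and chance gives about 1 in 20. CDK1 was 8.80 on LW TN 2, with the other arrays of the group at 9.23 to 9.35. BUB1 was 7.32 on LW HS 2 (others 6.51 to 6.77), and CCNB1 was 7.61 on CR HS 3 (others 8.07 to 8.20). RRM2 was 7.09 on F1 HS 5, with the others at 8.09 to 8.31. On F1 TN 6 both MKI67 (12.08, others 11.78 to 11.86) and PCNA (8.19, others 7.71 to 7.88) were high.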

How the results depend on the processing

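The count of 15 genes lower in HS pigs stayed between 13 and 18 when single arrays were left out, the mitotic count between 12 and 15, and the median between -0.22 and -0.15. The count past the adjusted threshold was 2 with slide as a fixed block, 3 as a random block and 1 with the fixed block and without slide 1, and 0 to 5 without single arrays. It was 5 without F1 TN 3 (UBE2C, TPX2, BIRC5, CDK1 and RRM2, adjusted p-values from 0.035 to 0.0469), 3 without LW HS 3, 2 without LW HS 2 or CR TN 3 and 1 without LW TN 3. The G1/S and replication count was 1 to 3 without single arrays, 2 with the processed intensity, the fixed slide block, no breed term, or without LW TN 2 and CR TN 1 together, and 3 with the random slide block. The mean of these genes turned to 0.06 within slide 3.

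Without single arrays the within-breed counts were 0 to 2 in LW, 8 to 15 in CR and 6 to 14 in F1 pigs. The LW count was 3 with array weights, and 0 by the dimmest probe or without LW TN 2 and CR TN 1. Interaction calls were 0 to 1 without single arrays (1 without CR TN 3, F1 TN 3 or F1 HS 5), 2 with the fixed slide block and 1 with array weights. Without single arrays, LW against CR gave 1 to 5 (adjusted 0 to 1), F1 against LW 1 to 3 and F1 against CR 0 to 3. In this order, the processed intensity gave 2, 1 and 2. LW HS 3 as Creole gave 1 for LW against CR, and every probe of a gene gave 2 for it and 0 for F1 against LW. F1 against LW was 1 by the dimmest probe. F1 against CR was 2 with the random slide block, and 1 gene (AURKB) passed the adjusted threshold by the dimmest probe. The cause was not tested in any of these cases. Normexp, the deposited table and both other filters left all of these counts within 1.5 times. No paired analysis was possible because the labels carry neither the blocks of littermates nor replicate numbers. The numbers in array names such as LW TN 2 were given here, in the order of the samples. The settings without 2 arrays, without slide 1 and with wider naming were chosen after seeing the data.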
